A study of Mus musculus with 4 samples.

Results

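A set of 10 genes that read out or restrain signalling through the kinase ERK were followed in AML12 cells with and without knockdown of Safb. They were chosen by symbol from the deposited table (Egr1, Ier2, Ier3, Dusp1, Dusp4, Dusp5, Dusp6, Spry2, Spry4 and Myc), and all 10 were found among its 52192 genes. AML12 is a mouse hepatocyte line, derived from mice carrying a transgene for human TGF-alpha, a ligand of the EGF receptor. The study compared 2 libraries from cells infected with a lentivirus for a control hairpin (shCtrl) with 2 from cells infected with a lentivirus for a hairpin against Safb (shSafb), the gene of a nuclear matrix protein. Both groups grew in 10% fetal bovine serum, an insulin-containing supplement and 0.1 uM dexamethasone, and were harvested 5 days after what is recorded as transfection. Also recorded for both are 200 ul of virus concentrate and a medium change time of 24 hours. The labels name 1 hairpin per group and do not say whether replicates were separate cultures. The p-values therefore rest on the spread between 4 libraries, and that spread may be technical.

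Growth factor receptors activate RAS proteins, which switch on a chain of kinases from RAF through MEK to ERK. ERK phosphorylates ETS-family factors such as ELK1, which act with serum response factor (SRF) at promoters of early response genes. The same signal raises the RNA of the pathway's own brakes, the dual-specificity phosphatases (DUSPs), which take phosphate off ERK and related kinases, and the Sprouty proteins, which act upstream of ERK. In hepatocytes EGF and HGF act through this pathway in growth and liver regeneration. RNA was measured here and the phosphorylation of ERK was not.

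Total RNA depleted of ribosomal RNA was sequenced, and levels are given in TPM, a relative transcript abundance scaled by gene length. TPM keeps no read totals, so depth is unknown. Safb was at 23.8 and 23.3 TPM in shCtrl and at 15.8 and 15.02 TPM in shSafb, a fall of 1.53-fold (log2 change -0.56 ± 0.07, SE; limma adjusted p = 0.00411). Hepatocyte markers were abundant, with Ttr at 2177 to 2312 TPM, and of the 10 in that list 3 were higher and 3 lower in shSafb; Alb was 2.91-fold lower. Their summed level was 9427 and 9384 TPM in shCtrl and 13403 and 13262 TPM in shSafb, a sum in which Trf, the transferrin gene, went from 2453 and 2418 TPM to 6814 and 6778 TPM. Cdh5, Kdr, Adgre1, Clec4f and Lrat, which define endothelial cells, macrophages and stellate cells, were listed at 0 in all 4 libraries, and the lists for those cells each summed to at most 3.32 TPM in any library. The summed TPM of the 5 biliary markers was 1675 and 1640 in shCtrl and 1513 and 1578 in shSafb, and of the 4 tested 1 was higher and 2 lower in shSafb: Krt19 was 2.12-fold higher, Spp1 1.73-fold lower and Sox9 1.34-fold lower, the last a call lost in 4 of 13 alternatives. Mitochondrial RNA was 0.845% and 0.703% of TPM in shCtrl and 0.3185% and 0.343% in shSafb. In bulk RNA a change in the share of cells of a type and a change in RNA per cell cannot be told apart. The part of these differences in the results below was not tested.

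Of the 10 members, 9 reached the mean of 1 TPM over the libraries that the test required, and 7 of these rose in shSafb while 0 fell (limma, Benjamini-Hochberg adjusted p under 0.05). Over all 13111 tested genes 44.3% passed, 21.9% higher and 22.4% lower. The 7 were all 4 phosphatase genes, Spry2, Ier3 and Myc. Egr1 and Ier2 did not pass, and Spry4 was below the level tested. Both shSafb values lay above both shCtrl values for 8 of the 10 members, against 35.5% of tested genes, and Ier2 was the 1 member with both lower, against 39.3%. The median log2 change of the 9 tested members was 0.55, beside 0.00 over all tested genes. Members were chosen with earlier results of these data known, so these shares and medians describe the members and are not an independent test. With 2 libraries against 2, an exact two-sided permutation test of a single gene cannot go below 0.333, so calls rest on the fit across all genes.

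**Figure D1:**
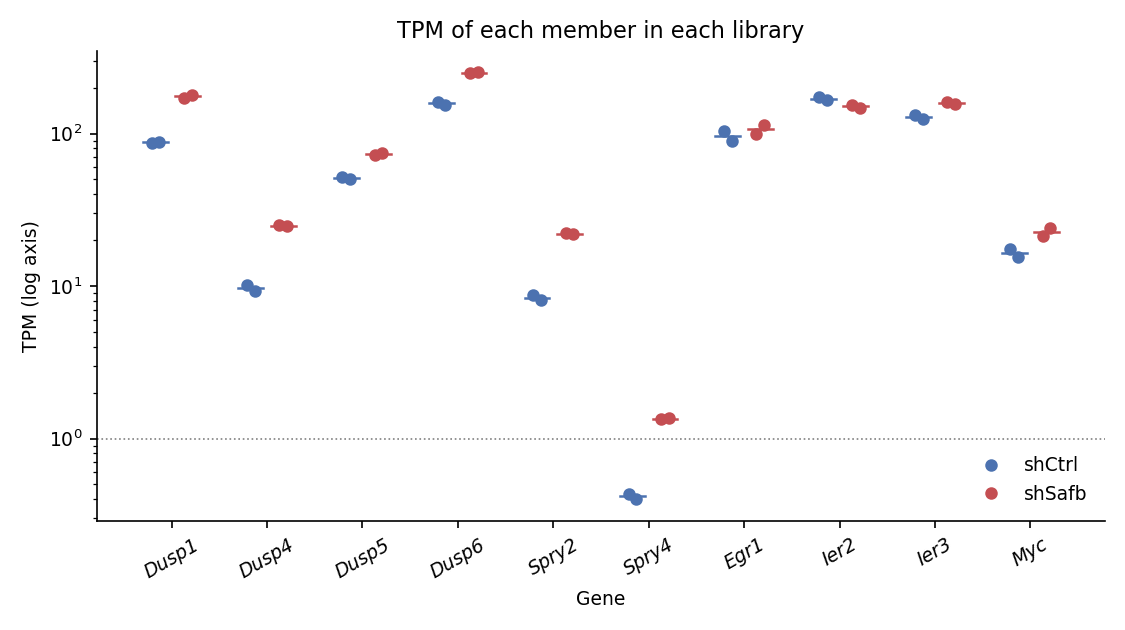
TPM of the 10 members in each library, on a log axis, with points for libraries and lines for group means of 2 libraries (blue shCtrl, red shSafb) and a dotted line at 1 TPM. The red points lie above the blue ones in 8 genes; those of Egr1 interleave and those of Ier2 lie below.

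The phosphatases of the members fall in different classes by what they act on. DUSP1 is nuclear and acts on JNK and p38 kinases as well as ERK, and its gene is also known to be induced by glucocorticoids, which both groups received. Dusp1 (ENSMUSG00000024190, mm10 chromosome 17, 26505590 to 26562128, minus strand) was at 87.4 and 88.3 TPM in the shCtrl libraries and at 172 and 179.65 TPM in the shSafb libraries. The groups were far apart and each pair was tight. Its mean rose from 87.8 ± 0.630 to 176 ± 5.46 TPM (SD, n = 2 each), a log2 change of 1.02 ± 0.05 (SE; limma adjusted p = 0.000782). Exons of Dusp1 overlap those of Ergic1 on the opposite strand, which was at 108 and 73.3 TPM in shCtrl and at 75.7 and 74.2 TPM in shSafb. The libraries were strand-specific per the labels, but no source used here says whether counting took account of strand, so the Dusp1 value is uncertain to that extent.

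DUSP6 is cytoplasmic and has a strong preference for ERK, and its RNA is a widely used readout of the pathway. Dusp6 (ENSMUSG00000019960, chromosome 10, 99263231 to 99267489, plus strand) was at 161 and 154 TPM in shCtrl and at 249.8 and 253 TPM in shSafb. The shSafb libraries nearly coincided and both stood above the shCtrl libraries. Mean TPM rose 1.59-fold, from 158 ± 5.03 to 251 ± 2.26 (SD, n = 2 each), with a log2 change of 0.70 ± 0.04 (SE; limma adjusted p = 0.000863). It was the most abundant member in shSafb and came after Ier2 in shCtrl.

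DUSP4 and DUSP5 are nuclear phosphatases, and DUSP5 is specific for ERK. Dusp4 (ENSMUSG00000031530, chromosome 8, 34807297 to 34819894, plus strand) was at 10.2 and 9.30 TPM in shCtrl and at 25.1 and 24.8 TPM in shSafb. Its values more than doubled in both libraries, and its mean rose 2.56-fold (log2 change 1.30 ± 0.07, SE; limma adjusted p = 0.000836). Dusp5 (ENSMUSG00000034765, chromosome 19, 53529109 to 53542431, plus strand) was at 51.6 and 50.03 TPM in shCtrl and at 72.2 and 74.9 TPM in shSafb. This was the smallest rise of the 4 phosphatases, 1.45-fold (log2 change 0.55 ± 0.05, SE; limma adjusted p = 0.00208).

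The RefSeq table of GRCm38.p6 (mm10) gave a start site for 5 members, Dusp1, Dusp5, Dusp6, Spry2 and Ier3. The 250 bases before that start are printed 5′ to 3′ on the gene's strand for the 4 feedback genes among them. Each of these 4 passed as higher in shSafb, and their windows differ in matches to the letters searched. Whether the matches bear on the rises was not tested. Capitals mark matches to the CArG box bound by SRF and to the CRE (TGACGTCA) or its core TGACG, which CREB and ATF factors bind. They also mark the AP-1 site TGANTCA and CCGGAA, a form of the ETS site. Each was searched on both strands. The CRE contains the core on each strand. The windows are chr17:26508473-26508722 (minus strand) for Dusp1, chr19:53528895-53529144 (plus) for Dusp5, chr10:99262981-99263230 (plus) for Dusp6 and chr14:105896820-105897069 (minus) for Spry2. The Dusp1 window lies inside the gene span given above, which runs on to 26562128, so its RefSeq start is not the 5′ end of that span.
Dusp1: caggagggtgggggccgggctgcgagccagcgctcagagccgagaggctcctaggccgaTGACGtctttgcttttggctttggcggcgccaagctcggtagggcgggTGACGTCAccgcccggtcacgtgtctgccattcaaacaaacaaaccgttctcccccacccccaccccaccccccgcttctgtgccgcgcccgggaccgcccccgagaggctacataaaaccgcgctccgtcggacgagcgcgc
Dusp5: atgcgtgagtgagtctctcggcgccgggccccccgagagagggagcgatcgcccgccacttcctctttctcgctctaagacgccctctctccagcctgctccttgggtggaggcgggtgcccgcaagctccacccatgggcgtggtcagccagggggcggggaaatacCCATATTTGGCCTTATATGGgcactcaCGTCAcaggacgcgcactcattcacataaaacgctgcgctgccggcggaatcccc
Dusp6: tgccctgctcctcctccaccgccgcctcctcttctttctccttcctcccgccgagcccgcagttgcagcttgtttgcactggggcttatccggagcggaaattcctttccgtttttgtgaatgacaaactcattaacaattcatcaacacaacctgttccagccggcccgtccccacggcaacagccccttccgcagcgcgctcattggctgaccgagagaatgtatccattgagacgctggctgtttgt
Spry2: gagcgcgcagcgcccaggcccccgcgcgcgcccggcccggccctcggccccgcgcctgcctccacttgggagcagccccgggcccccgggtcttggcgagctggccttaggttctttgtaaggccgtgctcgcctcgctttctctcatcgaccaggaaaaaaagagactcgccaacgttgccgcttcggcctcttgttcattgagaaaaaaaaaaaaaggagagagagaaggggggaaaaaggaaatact

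The Dusp1 window held a full CRE starting 143 bases before the start and a further CRE core at 191 bases. A full CRE was found in 1.55% of the 32851 RefSeq windows of this length and the core in 17.8%. In the Dusp5 window, CArG boxes starting at 82 and 72 bases before the start stood side by side, followed by a CRE core on the opposite strand at 55 bases. At least 1 CArG box was present in 1.47% of all windows, and Dusp5 was the 1 member of the 5 with one. None of the searched letters was in the Dusp6 or Spry2 windows. Neither AP-1 (6.75% of all windows) nor CCGGAA (12% of all windows) was matched in any of the 5 windows. ETS sites of other letters were not searched, and GGAA, the last part of CCGGAA, is in the printed Dusp5, Dusp6 and Spry2 windows. GC boxes (GGGCGG), present in 32.7% of all windows, were matched 3 times in Dusp1 and once each in Dusp5 and Ier3. These are matches of letters in 1 short window; binding was not measured.

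**Figure D2:**
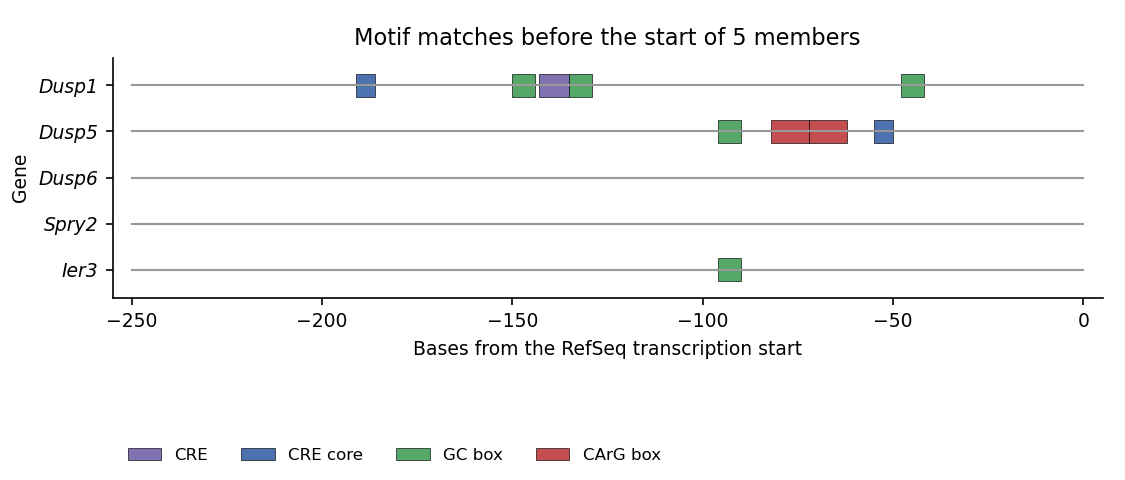
Motif matches (coloured blocks, drawn to scale) in the 250 bases before the RefSeq start of 5 members, with position in bases from the start on the x axis and a row per gene. Dusp5 holds 2 adjoining CArG boxes, Dusp1 a CRE between GC boxes, and the Dusp6 and Spry2 rows are empty.

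Sprouty proteins are induced by ERK signalling and restrain the route from receptors to RAF. Spry2 (ENSMUSG00000022114, chromosome 14, 105891947 to 105896819, minus strand) was at 8.68 and 8.09 TPM in shCtrl and at 22.1 and 22.01 TPM in shSafb. The shSafb values were almost equal and well above the shCtrl values. Its mean rose from 8.38 ± 0.415 to 22.1 ± 0.0799 TPM (SD, n = 2 each), 2.63-fold, the largest log2 change of the tested members at 1.32 ± 0.07 (SE; limma adjusted p = 0.000816).

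Spry4 (ENSMUSG00000024427, chromosome 18, 38586247 to 38601415, minus strand) was the least abundant member. It was listed at 0.434 and 0.400 TPM in shCtrl and at 1.34 and 1.36 TPM in shSafb, so only the shSafb libraries reached 1 TPM. The ratio of the group means was 3.22, with no test at the level required. When genes from a mean of 0.1 TPM were tested, its log2 change was 0.73 (limma adjusted p = 0.0113), where 15.2% of 18480 genes were higher. At these levels few reads may lie behind a value, and their number is unknown.

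The early response genes among the members did not move together. EGR1 is a zinc finger transcription factor, made within minutes of ERK activation. Egr1 (ENSMUSG00000038418, chromosome 18, 34859823 to 34864984, plus strand) was at 104 and 88.9 TPM in shCtrl and at 99.6 and 114 TPM in shSafb. The groups overlapped, and the log2 change was 0.17 ± 0.09 (SE; limma adjusted p = 0.205), with a 95% confidence interval from -0.08 to 0.42. A rise like that of Dusp6 lies outside this interval, but a rise like that of Ier3 does not.

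Ier2, an immediate early gene with a single exon and a nuclear product, was the member with the lower values in shSafb. Ier2 (ENSMUSG00000053560, chromosome 8, 84661331 to 84662852, minus strand) was at 173 and 166 TPM in shCtrl and at 154 and 147 TPM in shSafb. The groups did not overlap, but the difference did not pass the test (log2 change -0.15 ± 0.05, SE; 95% confidence interval -0.27 to -0.03; limma adjusted p = 0.0576). It passed with the deposited TPM left unscaled (adjusted p = 0.0491), and over all alternatives the adjusted p ran from 0.0491 to 0.256. Ier3, whose product is an ERK substrate linked to cell survival, is on chromosome 17 (ENSMUSG00000003541, 35821684 to 35822923, plus strand). It was at 133 and 125 TPM in shCtrl and at 162 and 157 TPM in shSafb. Both shSafb libraries were higher, and its rise of 1.23-fold was the smallest among members that passed (log2 change 0.33 ± 0.04, SE; limma adjusted p = 0.00575).

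MYC is a growth-promoting transcription factor whose gene responds to mitogens and whose protein is stabilised by ERK phosphorylation. Myc (ENSMUSG00000022346, chromosome 15, 61985391 to 61990374, plus strand) was at 17.6 and 15.5 TPM in shCtrl and at 21.4 and 23.9 TPM in shSafb. The groups did not overlap, though the spread within each was wide for a member. The mean rose 1.37-fold, from 16.6 ± 1.51 to 22.7 ± 1.81 TPM (SD, n = 2 each), with a log2 change of 0.46 ± 0.09 (SE; limma adjusted p = 0.0161). Leaving out replicate 2 of either group ended the call (limma adjusted p = 0.0630 for shCtrl and 0.0692 for shSafb), in a range of 0.0116 to 0.0692 over the alternatives.

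With a change of at least 1.5-fold on the fitted scale also required, 4 of the 9 tested members were called higher, Dusp1, Dusp4, Dusp6 and Spry2, and 0 lower, where 9.94% of all tested genes were higher and 10.7% lower. Among the log2 changes of all tested genes, ranked from lowest to highest, Spry2 stood at percentile 98.4, Dusp4 at 98.2, Dusp1 at 96.4 and Dusp6 at 91.6. Dusp5 was at percentile 87.9, Myc at 84.1, Ier3 at 77.2, Egr1 at 65.4 and Ier2 at 36.6. Among the 9 tested members the feedback genes were thus ahead of the early response genes in size of change. This is a description for which no test was made, and it does not extend to other genes of either kind. Of 33 other tested early response genes 17 were higher and 4 lower. Rhob and Maff among them, named after their values were seen, stood at percentile 98.7, and the inhibitor gene Spred2 at 16.1.

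**Figure D3:**
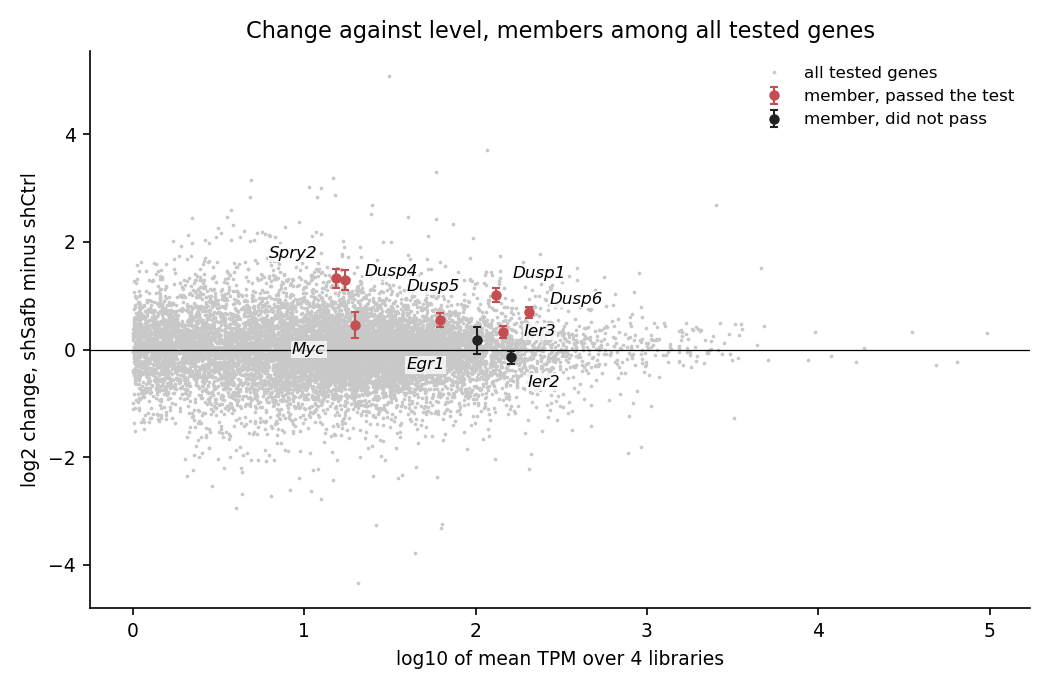
Log2 change (shSafb minus shCtrl) against the log10 of mean TPM for all 13111 tested genes (grey) and the 9 tested members, with bars for 95% confidence intervals from limma. The intervals of the 7 red members lie above 0; that of Egr1 spans 0 and that of Ier2 ends just below it.

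By level, which TPM allows between genes, the members spanned a wide range. In shCtrl the order of mean TPM was Ier2 (169.6), Dusp6 (158), Ier3 (129), Egr1 (96.6), Dusp1 (87.8), Dusp5 (50.8), Myc (16.6), Dusp4 (9.74), Spry2 (8.38) and Spry4 (0.417), and no neighbours in that order overlapped in their library values. In shSafb it was Dusp6 (251), Dusp1 (176), Ier3 (159), Ier2 (150.5), Egr1 (107), Dusp5 (73.5), Dusp4 (24.9), Myc (22.7), Spry2 (22.1) and Spry4 (1.35). There only Myc and Spry2 overlapped. Dusp1 moved from rank 5 to rank 2 and Ier2 from rank 1 to rank 4. Egr1, Ier2, Ier3, Dusp1 and Dusp6 were at percentile 91.1 to 95.9 of mean level among tested genes, and Myc, Dusp4 and Spry2 at 47.4 to 55.1.

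The rest of the pathway was followed through lists of known components. Each list's counts here and below are to be read beside the shares over all tested genes, 21.9% higher and 22.4% lower. In the RAS to ERK cascade, 5 of 22 tested genes were higher and 7 lower, with a median log2 change of -0.09. Hras rose by 0.73 ± 0.05 and Nras by 0.54 ± 0.11 on the log2 scale (SE; limma adjusted p = 0.00143 and 0.0177), both genes of RAS proteins. Nras lost its call without either shSafb library (adjusted p up to 0.0713 over the alternatives). Mapk3, the gene of ERK1, was lower (log2 change -0.34 ± 0.08, SE; limma adjusted p = 0.0241). It lies outside the rule for named genes and was chosen after its values were seen. The higher count of this list was 3 without shSafb replicate 1, and the lower count was 2 without shSafb replicate 1, 3 without shSafb replicate 2 and 4 without shCtrl replicate 1.

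Upstream, Egfr, the EGF receptor gene, fell from 113 ± 8.21 to 60.4 ± 0.509 TPM (SD, n = 2 each; log2 change -0.87 ± 0.05, SE; limma adjusted p = 0.000952). Met, the HGF receptor gene, fell by 0.24 ± 0.04 on the log2 scale (SE; limma adjusted p = 0.0137), a call lost without either shSafb library. Insr, the insulin receptor gene, rose by 0.39 ± 0.09 (SE; limma adjusted p = 0.0242), with the same losses and also with no filter on level, and Igf1r did not pass. Of 10 tested growth factor receptor kinases 2 were higher and 4 lower, and 1 was higher and 2 lower without either shSafb library. Downstream, among 9 kinase genes of the ERK-activated and related MAPKAP families, 2 were higher and 2 lower, with 1 higher without shSafb replicate 2. Rps6ka1, encoding the ERK target kinase RSK1, rose by 0.82 ± 0.10 (SE; limma adjusted p = 0.00485). It does not stand for its list, whose median log2 change was 0.02. The counts of both lists stand beside 21.9% higher and 22.4% lower over all tested genes.

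Other inhibitors of the pathway were called in both directions, as were tested genes as a whole (21.9% higher and 22.4% lower). Of 7 tested RAS GTPase-activating protein genes 0 were higher and 2 lower, Rasa3 among the latter, and the lower count was 0 in each of the 4 fits that left out 1 library and with the filter lowered. Nf1, Rasa1 and Rasa2 did not pass. Of 9 other inhibitors 2 were higher and 3 lower, and 1 was lower without either shCtrl library or without shSafb replicate 1. Spry1, a further Sprouty gene, rose from 8.88 ± 0.0400 to 13.5 ± 0.948 TPM (log2 change 0.57 ± 0.09, SE; limma adjusted p = 0.00836), while Spred2, of the related SPRED family, fell by 0.47 ± 0.12 (SE; limma adjusted p = 0.0366), a call lost in 4 of 13 alternatives. Spred1 and Spred3 did not pass. Of 7 other dual-specificity phosphatase genes 1 was higher and 2 lower: Dusp9, whose product prefers ERK, rose from 2.68 ± 0.0856 to 5.58 ± 0.146 TPM, Dusp3 fell by 0.25 ± 0.06 on the log2 scale (a call lost without any 1 of the 4 libraries, where the lower count of the list was 0 to 1), and Dusp7 and Dusp8 did not pass (limma adjusted p = 0.0504 and 0.805), though Dusp7 passed as higher in 5 of 13 alternatives.

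Among the transcription factors that carry the signal, 3 of 12 tested genes were higher and 0 lower, beside 21.9% and 22.4% of all tested genes. Srf, Elk1, Elk3 and Elk4 did not pass (limma adjusted p = 0.0687 to 0.321). The 3 were Etv4, Ets2 and Erf, of which Ets2 and Erf were named after their values were seen. Etv4, a PEA3-family ETS gene and known ERK target, was at 2.10 and 1.97 TPM in shCtrl and at 13.7 and 13.3 TPM in shSafb. Its rise of 6.62-fold (log2 change 2.27 ± 0.09, SE; limma adjusted p = 0.000611) exceeded that of every member. Its relative Etv5 was at 2.57 and 2.35 TPM in shCtrl and at 3.14 and 2.76 TPM in shSafb and did not pass (limma adjusted p = 0.228).

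A published 10-gene score of MAP kinase pathway output contains 4 members, Spry2, Spry4, Dusp4 and Dusp6, so its count is not separate evidence. Of its 9 tested genes 6 were higher and 1 lower, with a median of 0.70. Beyond the members, Etv4, Phlda1 and Epha4 were higher, Ccnd1, the cyclin D1 gene, was lower (from 480.3 to 378 TPM in the mean), and Etv5 and Epha2 did not pass. Phlda1, Epha4, Ccnd1 and Epha2 were named after their values were seen.

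Of 33 other tested early response genes 17 were higher and 4 lower, with a median of 0.24, and 13 to 16 were higher in the fits that left out 1 library. Over all tested genes 21.9% were higher and 22.4% lower. Among the 17, Rhob and Maff rose 2.57-fold and 2.58-fold. Gem, also among them, was at 0.406 and 0.390 TPM in shCtrl, so it met the filter only through its shSafb values. These 3 were named after their values were seen. The genes named by written order include none of the 17. Fos did not pass (455 and 432 TPM in shCtrl, 449.6 and 446 TPM in shSafb, limma adjusted p = 0.437). Fosb, a related AP-1 gene, fell from 99.3 ± 1.40 to 65.5 ± 1.63 TPM (limma adjusted p = 0.00184). Fosl1 and Fosl2 did not pass, though Fosl1 did in 2 of 13 alternatives. In the wider MYC dimerization network 3 of 10 tested genes were higher and 2 lower, and the lower calls were not stable when 1 library was left out. Max, the obligate partner, did not pass, and Mxd4, a MYC antagonist gene, rose from 225 ± 0.712 to 317 ± 1.30 TPM. Of 16 genes known as MYC targets or regulators of its turnover 4 were higher and 1 lower (2 to 5 higher and 0 to 1 lower with 1 library left out, the 2 without shSafb replicate 2). Among the higher were Odc1, the polyamine synthesis enzyme gene, up by 0.43 ± 0.06 (SE; limma adjusted p = 0.00701), and Npm1 by 0.21 ± 0.05 (SE; limma adjusted p = 0.0263; lost in 6 of 13 alternatives). Ncl and Cad did not pass.

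Over all these lists, with each gene counted once and the members left out, 44 of 163 tested genes were higher and 33 lower, with a median of 0.06. Among all 13111 tested genes, 21.9% were higher and 22.4% lower. The lower count was 20 without shCtrl replicate 1, 24 without shCtrl replicate 2, 15 without shSafb replicate 1 and 19 without shSafb replicate 2, and the higher count 33 to 43 in those fits.

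**Figure D4:**
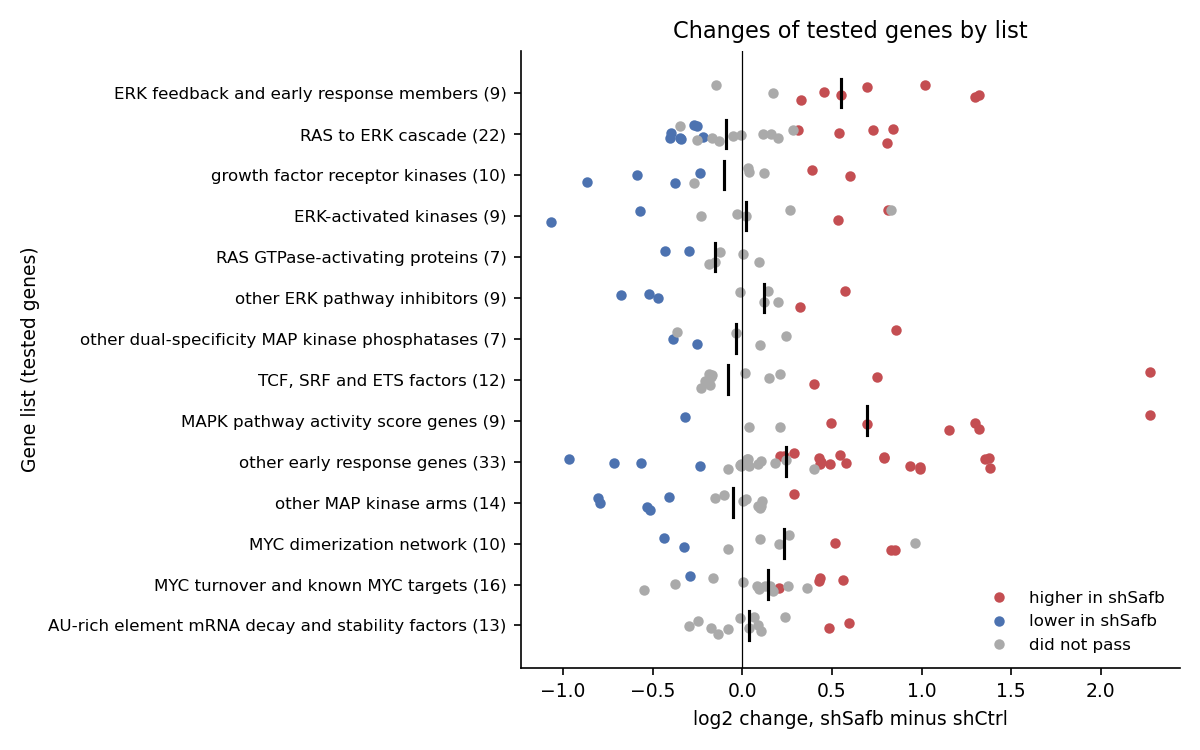
Log2 change (shSafb minus shCtrl) of each tested gene by list, with the number tested in parentheses and a black bar at the list's median; red and blue mark genes that passed higher and lower, grey those that did not. The members and the 10-gene score, which share 4 genes, have the rightmost medians (0.55 and 0.70).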

How the data were processed

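The authors' deposited TPM table holds 52200 rows and 52192 gene identifiers, with 1 column for each of the 4 libraries. HISAT2, HTSeq, StringTie, DESeq2 and the mm10 genome are listed in the submitters' processing notes, without versions or roles. Rows of an identifier present more than once (6) were added. Positions and gene types come from GENCODE mouse release 21. Groups and replicate numbers were read from sample titles. Libraries were scaled by median ratios (factors 0.991 to 1.03), log2(scaled TPM + 1) was fitted with limma 3.58.1 in R 4.3.3 with a group term and an intensity trend, and p-values were adjusted over the 13111 genes with a mean of at least 1 TPM. Log2 changes are on that scale and understate changes of low genes; printed means and folds use deposited TPM. The fit was also run on simulated data made from the means and spreads of these libraries. Such a run cannot show whether that spread is technical. Members and lists were chosen with earlier results of these data known. Named genes are the 10 members, Safb, and the first 4 tested genes of each list in its written order, unless stated. Some genes of the lists, counted in their totals, are not reported here by name. Alternatives covered pseudocount, filter, scaling, gene type, variance trend, replicate block, threshold and each library left out. Promoters are RefSeq's. Tables were joined in pandas 2.3.3 (Python 3.11.15) and figures drawn in matplotlib 3.10.9.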

Additional observations from a re-analysis of the deposited data

How the results depend on the processing

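Of the 120 recomputed changes of single members, all kept their direction and 114 their side of the threshold. Requiring a fold of 1.5 left 4 members higher, 1303 higher and 1408 lower genes over the table, and 20 higher and 8 lower genes of the other pathway lists. With 1 library left out, 6 to 7 members, 1754 to 2151 genes over the table and 33 to 43 other pathway genes were higher, and 15 to 24 other pathway genes lower (main values 7, 2867, 44 and 33); each such fit has 1 library in a group, assumed to vary like the rest. The log2 change of Myc was 0.38 to 0.53 there. Ier2 passed without scaling (-0.17). Spry4 entered the test and passed with a filter at 0.1 TPM (0.73), no filter (0.74) or only protein-coding genes (0.93). Under the other settings it was not tested. In the protein-coding fit TPM was rescaled, and Spry4 met the filter of 1 TPM through its higher shSafb values. That pass is not separate support for its rise. Counts of single lists moved by over 1.5 times in 48 of 338 cases and medians by 0.1 or more in 4 of 169. A replicate block left 7 members higher and 0 lower, and 2540 higher and 2686 lower genes over the table; the labels share only a number, and the differences between replicates 1 and 2 correlated at -0.06 between groups. TPM hides depth, which limits what can be said of Spry4.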

Other observations

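Kinases of the other MAP kinase arms (JNK, p38 and ERK5) were followed as a separate list. Its counts stand beside 21.9% higher and 22.4% lower over all tested genes. Of 14 tested genes 1 was higher and 5 lower, with 3 to 5 lower in fits that left out 1 library. Mapk9, which encodes the kinase JNK2, was at 34.4 and 33.5 TPM in shCtrl and at 21.8 and 23.8 TPM in shSafb, a log2 change of -0.53 ± 0.07 (SE; limma adjusted p = 0.00498). Mapk8, encoding JNK1, and Mapk11 and Mapk14, encoding p38 kinases, did not pass. The Mapk14 libraries were far apart within each group (52.0 and 23.7 TPM in shCtrl, 29.5 and 45.9 TPM in shSafb), so a change of that gene was not measurable here.

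Early response RNAs are short-lived, and proteins that bind AU-rich elements set their decay. Of 13 tested genes of this kind 2 were higher and 0 lower, with 0 to 2 higher when 1 library was left out. Zfp36 (tristetraprolin), Zfp36l1, Zfp36l2 and Elavl1 (the stabilising protein HuR) did not pass, with limma adjusted p from 0.0529 for Elavl1 to 0.929 for Zfp36. Among all tested genes, 21.9% were higher and 22.4% lower. RNA decay itself was not measured.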
